A study of Arabidopsis thaliana with 39 samples.

Results

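Small RNA counts were examined on the pseudogenes and transposable element genes that lie around the centromeres of *Arabidopsis thaliana*. Members were chosen by annotated type and by gene identifier: AT1G35000 to AT1G43000, AT2G05000 to AT2G13000, AT3G30000 to AT3G44000, AT4G03500 to AT4G08500 and AT5G28000 to AT5G36000. Of the 37184 genes with counts, 2934 were members, and 3 further annotated members were not in the counts. They spread over 12.81 to 16.12 Mb of chromosome 1 (402 members), 1.76 to 5.35 Mb of chromosome 2 (599), 11.75 to 15.79 Mb of chromosome 3 (691), 1.57 to 5.40 Mb of chromosome 4 (601) and 10.05 to 14.12 Mb of chromosome 5 (641). The TAIR10.1 annotation gives 2692 of them as pseudogenes and 242 as transcribed pseudogenes. It has no separate type for transposable element genes and lists them with these.

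The libraries came from whole seedlings in 3 sets, with 3 biological replicates for each of 13 groups, which are 10 mutants and 3 groups of Col-0. In the first set, 14 day-old seedlings on MS medium were *lsm1a lsm1b* (the LSM1 subunit of a decapping complex in the cytoplasm), *ncb-4* (the Cajal body protein coilin), *upf1-5* and *upf3-1* (nonsense-mediated decay factors), with the wild type Col-0 (1). In the second, also at 14 days on MS medium, they were *ahg2-1* (the poly(A) ribonuclease AHG2), *ccr4a* (a deadenylase), *pab2 pab4* (poly(A)-binding proteins), *fy-2* and *rsr1-2* (3′ end processing factors), with Col-0 (2). In the third, *cstf64-2* (a subunit of the cleavage and polyadenylation machinery) and Col-0 (3) were 21 day-old seedlings on soil, and the sterile *cstf64-2* homozygotes were picked by their morphology. Each genotype stands for 1 allele or allele pair, *fy-2* and *upf1-5* are hypomorphs, and the *cstf64-2* series shares no control with the others. In whole seedlings, a change in the cells sampled and a change of small RNAs per cell cannot be told apart.

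Pericentromeric heterochromatin is rich in retrotransposons and DNA transposons, which are silenced by DNA methylation. In plants, RNA polymerase IV and the RNA-dependent polymerase RDR2 make double-stranded RNA from such loci, DCL3 cuts it into 24 nt siRNAs, and AGO4 carries these to nascent polymerase V transcripts to guide methylation. Other small RNAs of 21 and 22 nt come from transcripts that RDR6 copies. The deposited counts hold all read lengths together, so these classes are not separated here.

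Repetition limits which reads can be placed on a member, since reads that matched more than 10 places were not kept. The median member had 64.2% of its 24-mers at a single place of the TAIR10.1 genome, compared with 90.5% for the 1895 pseudogenes and transposable element genes outside the identifier windows and 96.9% for the 1161 protein-coding genes inside them. Under 25% of the 24-mers were at a single place in 425 members, 25 to 75% in 1347 and over 75% in 1162. For the members on which the results turn, the first 150 bases are given in the direction of the gene, with the bases covered by a 24-mer that occurs once in the genome in capitals. AT4G03824 and AT1G42705 are among the 6 members up in 5 mutants, AT5G34853 was up in *cstf64-2*, and AT4G04408 and AT4G04409 are an opposed pair that fell in it. AT5G29975 stands for repetitive members and AT2G07688 for copies of organelle sequence.
AT4G03824 (TAIR10.1 chr4:1782462-1782611, plus strand): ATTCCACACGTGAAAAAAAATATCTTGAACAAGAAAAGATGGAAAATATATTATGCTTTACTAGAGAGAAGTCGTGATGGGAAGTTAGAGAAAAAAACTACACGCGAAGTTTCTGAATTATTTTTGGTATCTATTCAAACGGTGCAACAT
AT1G42705 (TAIR10.1 chr1:16071341-16071490, plus strand): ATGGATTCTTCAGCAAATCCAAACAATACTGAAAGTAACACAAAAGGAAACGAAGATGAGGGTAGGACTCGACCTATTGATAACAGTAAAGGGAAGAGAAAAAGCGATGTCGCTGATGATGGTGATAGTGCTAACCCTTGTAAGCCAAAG
AT5G34853 (TAIR10.1 chr5:13103678-13103827, plus strand): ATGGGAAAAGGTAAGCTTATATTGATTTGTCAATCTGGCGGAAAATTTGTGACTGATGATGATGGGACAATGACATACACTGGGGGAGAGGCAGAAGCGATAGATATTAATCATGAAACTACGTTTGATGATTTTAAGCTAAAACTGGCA
AT4G04408 (TAIR10.1 chr4:2184251-2184400, minus strand): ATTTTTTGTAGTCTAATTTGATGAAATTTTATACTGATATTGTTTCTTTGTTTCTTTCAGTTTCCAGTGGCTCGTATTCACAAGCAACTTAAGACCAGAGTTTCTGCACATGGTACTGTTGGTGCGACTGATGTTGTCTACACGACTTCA
AT4G04409 (TAIR10.1 chr4:2184420-2184569, plus strand): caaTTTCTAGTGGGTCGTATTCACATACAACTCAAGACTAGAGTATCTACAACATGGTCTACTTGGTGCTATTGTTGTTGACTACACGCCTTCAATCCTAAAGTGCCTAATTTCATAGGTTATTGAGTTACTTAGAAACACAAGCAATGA
AT5G29975 (TAIR10.1 chr5:11329735-11329884, minus strand): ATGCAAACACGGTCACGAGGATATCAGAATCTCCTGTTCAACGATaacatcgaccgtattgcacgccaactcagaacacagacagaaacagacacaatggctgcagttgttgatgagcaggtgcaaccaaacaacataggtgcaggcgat
AT2G07688 (TAIR10.1 chr2:3331997-3332146, minus strand): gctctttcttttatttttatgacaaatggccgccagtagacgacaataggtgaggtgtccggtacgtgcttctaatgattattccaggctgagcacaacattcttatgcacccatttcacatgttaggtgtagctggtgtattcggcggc

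AT4G04408 (chromosome 4 from 2184059 to 2184400, minus strand) and AT4G04409 (chromosome 4 from 2184420 to 2184717, plus strand) lie head to head with 19 bases between them. Their sequences, each read in its own direction, aligned over 290 columns with 225 identical bases (77.6%), so that together they form an inverted repeat. AT4G04409 is annotated as a pseudogene of HTA11, a histone gene. In AT5G29975 (chromosome 5 from 11323981 to 11329884, minus strand) 5.68% of the 24-mers were at a single place, 61.7% at 2 to 10 places and 32.7% at more than 10. All 24-mers of AT2G07688 (chromosome 2 from 3331754 to 3332146, minus strand) also occur in the organelle genomes, as in AT2G07731.

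Between 6437260 and 9151932 counts fell on genes in the 33 libraries of the first and second sets, and between 2015212 and 2323991 in the third. Genes of ribosomal RNA took 41.6 to 58.3% of these counts in the first 2 sets and 18.0 to 26.7% in the third. Among genes with at least 50 summed counts, 201 in the first set and 200 in the second repeated the counts of some other gene library by library (11 and 12 of these were members), and 0 did in the third. How reads with several places were counted in each set was not tested, and levels are not compared between the third set and the others. The mutated genes gave few small RNA counts, which are not a measure of their mRNA. Counts at *PAB2* were 4, 9 and 5 in *pab2 pab4*, against 86, 87 and 96 in Col-0 (2), and those at *FY* were 56, 31 and 23 in *fy-2*, against 1, 2 and 3 in Col-0 (2). *UPF1* had 30, 20 and 28 counts in *upf1-5*, against 27, 17 and 20 in Col-0 (1), and *PAB4* had 11, 4 and 22 in *pab2 pab4*, against 18, 30 and 21 in Col-0 (2). The other mutated genes examined, which leave out that of *ccr4a*, had at most 8 counts in any library of their mutant or its Col-0.

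The first question was whether small RNAs from these heterochromatic genes as a whole changed when RNA maturation or decay was impaired. In Col-0 they made up 1.88 to 2.10% of gene counts in the first set, 1.37 to 2.00% in the second and 21.3 to 25.2% in the third. The share was higher in every library of every mutant of the first set than in Col-0 (1), and in every library of 4 of the 5 mutants of the second set than in Col-0 (2). In *cstf64-2* it was lower on average, with overlap.

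The share was 4.42, 3.80 and 4.62% in *lsm1a lsm1b* and 4.73, 3.95 and 4.48% in *upf3-1*, against 1.88, 1.93 and 2.10% in Col-0 (1). These are means of 4.28% ± 0.424 and 4.39% ± 0.401 (SD, n = 3), which are 2.17 and 2.22 times the 1.97% ± 0.113 (SD, n = 3) of Col-0 (1). In *ncb-4* the share averaged 3.85% ± 0.261 and in *upf1-5* 3.55% ± 0.411 (SD, n = 3), 1.95 and 1.80 times Col-0 (1). No library of these 4 mutants overlapped with Col-0 (1).

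In the second set the share averaged 2.81% ± 0.528 in *pab2 pab4*, 2.68% ± 0.423 in *ahg2-1*, 2.59% ± 0.380 in *rsr1-2* and 2.43% ± 0.266 in *fy-2*, against 1.64% ± 0.325 in Col-0 (2) (SD, n = 3 each). In *ccr4a* the libraries had 2.40, 2.00 and 1.82%, against 1.54, 1.37 and 2.00% in Col-0 (2), and overlapped. In *cstf64-2* they had 22.4, 21.2 and 19.4%, against 24.5, 25.2 and 21.3% in Col-0 (3). For each of the 8 mutants without overlap, the two-sided exact permutation test on log shares gave p = 0.1, the smallest that 3 against 3 libraries allow (adjusted p = 0.138 over 11 comparisons), and for *ccr4a* and *cstf64-2* it gave p = 0.2. Mutants of a set share their Col-0 libraries and are not independent of each other.

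**Figure D1:**
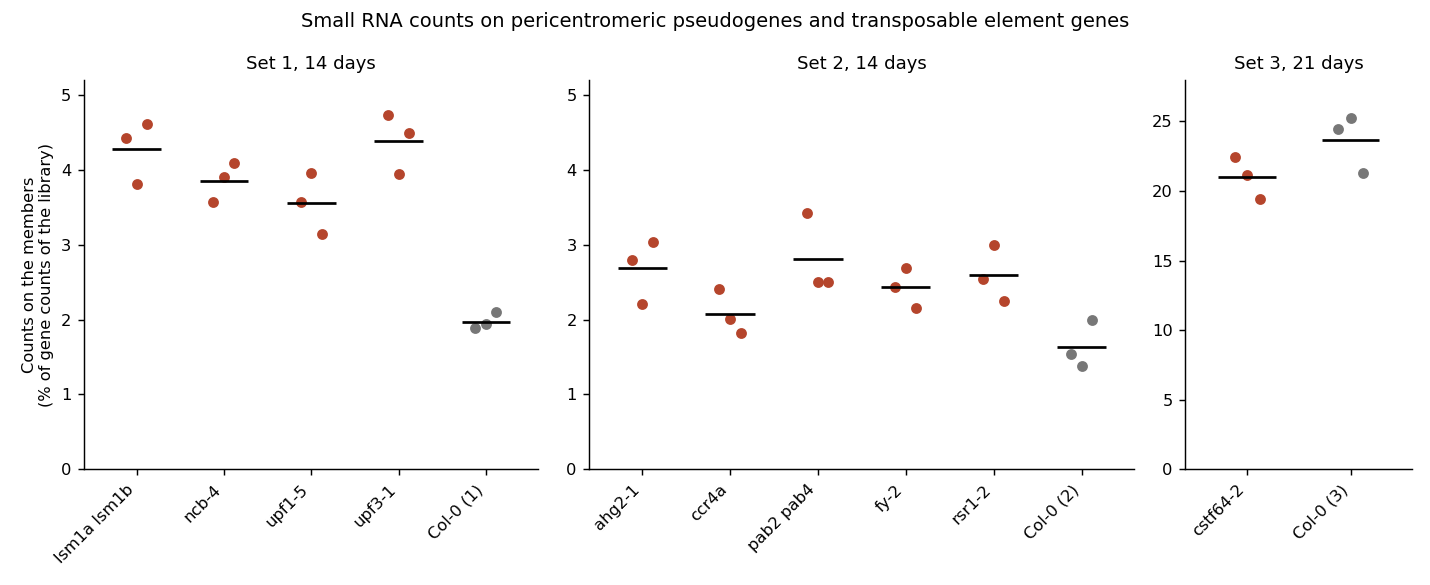
Percent of all gene counts of a library that fell on the 2934 members (y axis, linear from 0, with another range for the third set), by genotype and set; points are libraries and lines are means of 3. In the first set the 12 mutant libraries lie between 3.14 and 4.73%, above the 3 of Col-0 (1) at 1.88 to 2.10%.

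The shares of other classes also differed from Col-0 (1). The share of pseudogenes and transposable element genes outside the windows was 2.87% ± 0.380 in *lsm1a lsm1b* and 2.55% ± 0.284 in *upf3-1*, against 1.45% ± 0.0594 in Col-0 (1) (SD, n = 3 each). Protein-coding genes inside the windows had 0.715% ± 0.102 and 0.722% ± 0.0510 in these mutants, against 0.456% ± 0.0144 in Col-0 (1). Counts on organelle genes took 22.0 to 34.0% in *lsm1a lsm1b* and 33.7 to 37.3% in *upf3-1*, against 35.2 to 39.4% in Col-0 (1), and their part in the shares was not tested. Ratios between classes of genes leave out the counts on ribosomal RNA genes and organelle genes. Members that copy organelle sequence stay in, with 2.94% of member counts in *lsm1a lsm1b* and 5.09% in Col-0 (1). Counts on members divided by those on the other pseudogenes and transposable element genes gave 1.73 ± 0.0800 in *upf3-1*, 1.65 ± 0.0791 in *upf1-5*, 1.62 ± 0.0205 in *ncb-4* and 1.49 ± 0.0529 in *lsm1a lsm1b*, against 1.36 ± 0.0818 in Col-0 (1) (SD, n = 3 each), without overlap. In the second set this ratio was highest in *ahg2-1*, at 1.71 ± 0.0253, against 1.37 ± 0.0257 in Col-0 (2), and in *cstf64-2* it was 1.57 ± 0.0269, against 1.83 ± 0.0897 in Col-0 (3) (p = 0.1 for each of these 6, two-sided exact permutation test, n = 3 each). Relative to protein-coding genes of the same windows, the members were at 6.07 ± 0.130 in *upf3-1*, against 4.33 ± 0.191 in Col-0 (1), while *cstf64-2*, at 7.08 ± 0.0638, overlapped with Col-0 (3), at 7.01 ± 0.195. The ratio also differed between the wild types without overlap, at 3.51 ± 0.339 in Col-0 (2) and 4.33 ± 0.191 in Col-0 (1) (SD, n = 3 each, p = 0.1, two-sided exact permutation test).

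Gene by gene, each mutant was tested against the Col-0 of its set, and a gene was called where the adjusted p was under 0.05 and the log2 fold change over 1 in size. Between 2212 and 2375 of the 2934 members passed the filter on low counts in the mutants of the first and second sets, and 2730 in *cstf64-2*. The filter keeps a weakly covered member where one genotype is high, so counts and medians describe the members that passed. In all 14 day-old mutants, more members were called up than down, and in *cstf64-2* more were called down than up.

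In *upf3-1*, 197 of 2348 members tested were up (8.39%), where 4.39% of all genes tested were, and 5 were down, where 7.76% of all genes were. Of 2355 members tested in *ncb-4*, 99 were up (all genes 3.35%) and 2 down (7.27%). In *lsm1a lsm1b*, 60 of 2375 were up (all genes 2.2%), a share near the background, and 3 down (5.46%). In *upf1-5*, 51 of 2269 were up (all genes 1.56%) and 0 down (3.73%). At an unadjusted p under 0.05, 2 members would be down in *upf1-5* by edgeR, and DESeq2 called 0. Of protein-coding genes inside the windows, 8.15% were up in *upf3-1*, 2.40% in *ncb-4*, 3.83% in *lsm1a lsm1b* and 3.56% in *upf1-5*. The members had 8.39, 4.20, 2.53 and 2.25% in that order.

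In *ahg2-1*, 125 of 2252 were up (all genes 3.55%) and 5 down (5.27%). In *pab2 pab4*, 57 of 2309 were up (1.71%) and 4 down (4.47%), and in *rsr1-2*, 20 of 2296 were up (0.895%) and 0 down (1.55%). In *fy-2*, 8 of 2251 were up (0.493%) and 2 down (0.703%), and in *ccr4a*, 2 of 2212 were up (0.462%) and 0 down (0.154%). The up shares of *rsr1-2*, *fy-2* and *ccr4a* are at or below the background. For *pab2 pab4*, 3.22% of protein-coding genes inside the windows were up, and for *ahg2-1* 5.61%. The members had 2.47 and 5.55% in that order, and pseudogenes and transposable element genes outside the windows 2.19 and 1.96%. Every mutant of the second set had a higher up share for protein-coding genes inside the windows than for the members. Whether these shares differ was not tested. At an unadjusted p under 0.05, edgeR would give 0 members down in *rsr1-2* and 5 in *ccr4a*, and DESeq2 called 0 down in both. DESeq2 called 0 of the members up in *fy-2* and *ccr4a*, where edgeR at an unadjusted p under 0.05 would call 30 and 11, and it called 9 in *rsr1-2*.

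In *cstf64-2*, 8 of 2730 members were up (0.293%), against 13.6% of all genes tested, and 102 were down (3.74%), against 3.3% of all genes. The down share is near the background, and 36 of 600 protein-coding genes inside the windows were down (6%). Between the 2 wild types, where no mutation differs, 1 of 2133 members was higher in Col-0 (2) than in Col-0 (1) (all genes 1.67%) and 13 were lower (1.29%).

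**Figure D2:**
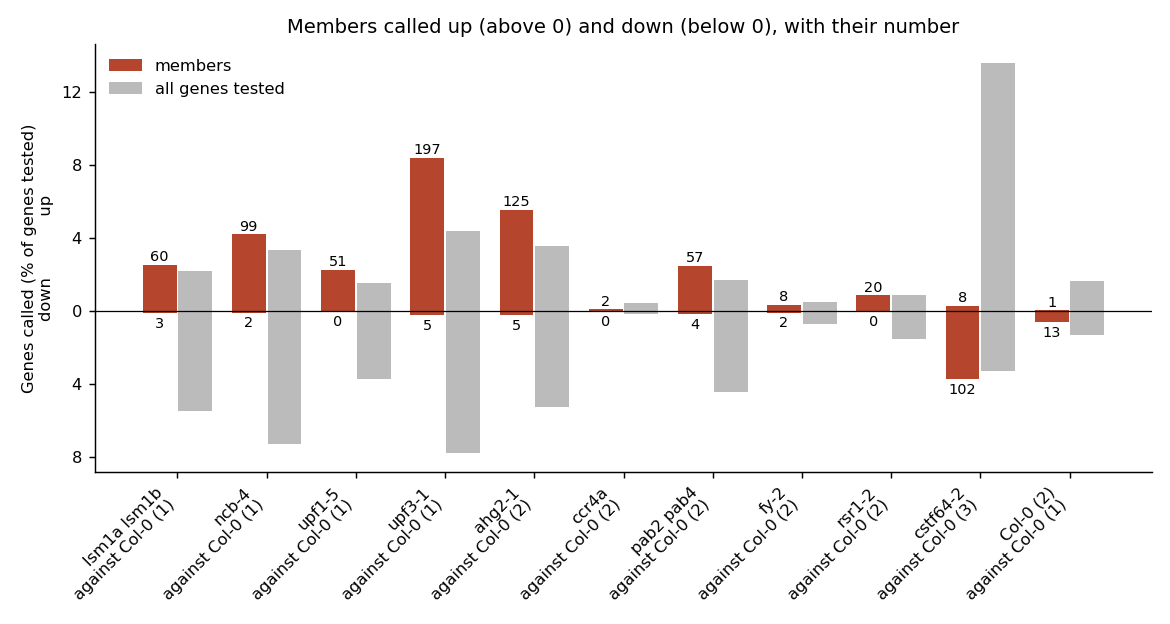
Percent of genes called up (above 0) and down (below 0) in each comparison (y axis), for the members tested and for all genes tested; the numbers are counts of members. Members called up number 197 in *upf3-1* and 125 in *ahg2-1*, and *cstf64-2* has 102 called down, a share near that of all genes tested.

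Of the members tested, called or not, 83.4% had a log2 fold change above 0 in *upf3-1* and 26.3% in *cstf64-2*. The median log2 fold change of the members tested was 0.41 in *upf3-1*, 0.35 in *ahg2-1* and *pab2 pab4*, 0.33 in *lsm1a lsm1b*, 0.31 in *rsr1-2*, 0.28 in *ncb-4*, 0.27 in *upf1-5*, 0.26 in *fy-2* and 0.05 in *ccr4a*. It was −0.26 in *cstf64-2* and −0.15 in Col-0 (2) against Col-0 (1). The median over all genes tested lay between −0.07 and 0.02. With TMM factors from protein-coding genes the all-gene median of *upf3-1* moved to 0.25, and 545 members were up and 0 down. The members' median exceeded that of all genes by 0.43 in *upf3-1*, a distance that a change of scaling cannot move, since it shifts all genes alike.

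The other classes of genes had lower medians than the members in the 14 day-old mutants. In *upf3-1* the medians were 0.13 for pseudogenes and transposable element genes outside the windows, 0.22 for protein-coding genes inside them and −0.31 for protein-coding genes outside. In *ahg2-1* they were 0.09, 0.07 and −0.26. In *pab2 pab4* the outside pseudogenes and transposable element genes, at 0.29, were close to the members, at 0.35. In *cstf64-2* protein-coding genes outside the windows had a median of 0.39 and the members −0.26.

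**Figure D3:**
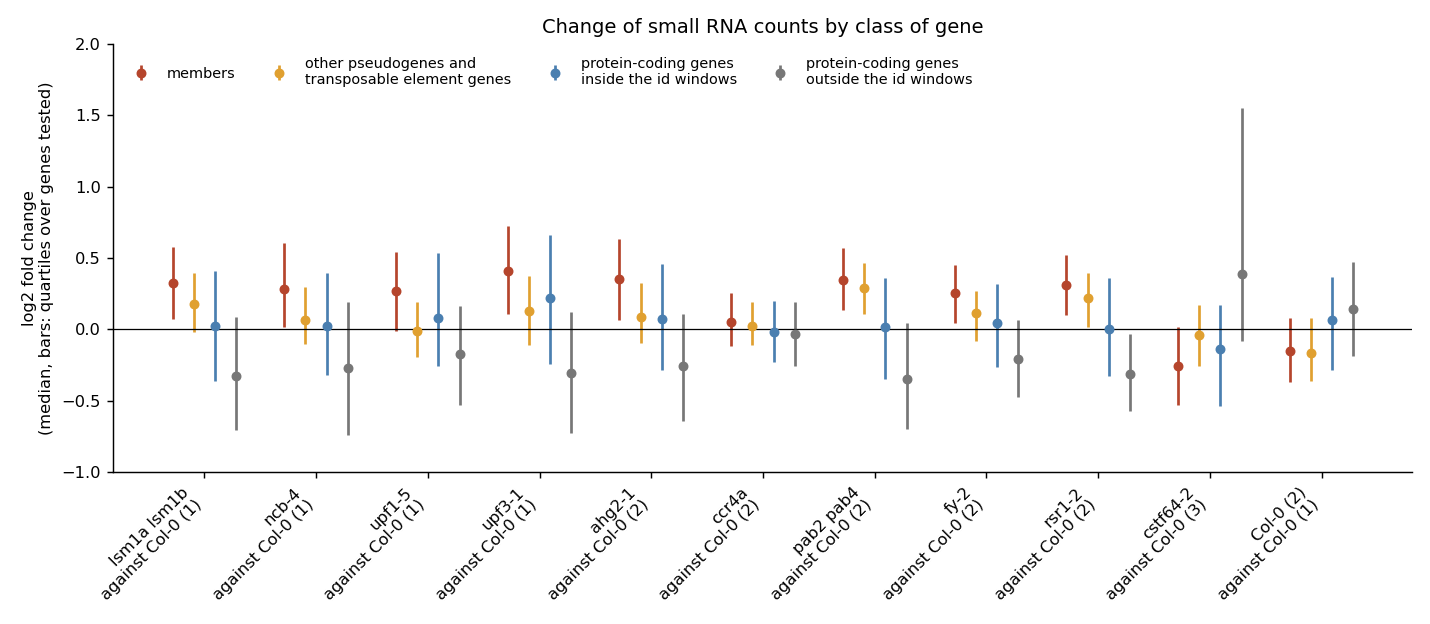
Median log2 fold change (points) and quartiles (bars) over the genes tested of 4 classes in each comparison. The members lie at 0.26 to 0.41 in 8 of the 9 mutants of the first and second sets, at 0.05 in *ccr4a* and at −0.26 in *cstf64-2*.

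Across the 10 mutants, 2506 members were up in none and 428 in at least one. Of the 428, 289 were up in 1 mutant, 99 in 2, 26 in 3, 8 in 4 and 6 in 5, and none was up in more. The 6 include AT1G39510, AT1G39513 and AT1G39515, which had the same counts in the first and second sets and are 1 measurement. Members up in at least 1 mutant numbered 295 in the first set and 171 in the second, and 41 were on both lists, which is 13.9% of the first list and 24% of the second. Of the 102 members down in *cstf64-2*, 17 were up in the first set (16.7%, compared with 295 of all 2934 members) and 2 in the second (1.96%, compared with 171 of all members, 5.83%), and whether these shares differ was not tested. No member was called in opposite directions in 2 mutants of one set, a count that was also 0 at an unadjusted p under 0.05 by edgeR and 0 by DESeq2.

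AT4G03824 (chromosome 4 from 1782462 to 1783625, plus strand), annotated as a pseudogene with all 24-mers at a single place, had almost no small RNAs in 14 day-old wild type. It had 22, 32 and 30 counts in *pab2 pab4*, against 0, 0 and 1 in Col-0 (2), a ratio of 61.2 for the scaled sums, with a 95% counting interval of 10.7 to 2444 (adjusted p = 1.85e-05). In *fy-2* there were 22, 25 and 27 counts and in *ahg2-1* 13, 16 and 18, which are ratios of 61.7 (10.7 to 2471) and 40.8 (6.97 to 1645) to the same Col-0 (2). The member also had 27, 22 and 17 counts in *ncb-4*, against 1, 2 and 0 in Col-0 (1), a ratio of 15.7 for the scaled sums, with a 95% counting interval of 5.14 to 78.1 (adjusted p = 0.000155). In *lsm1a lsm1b* there were 17, 11 and 20. The libraries of these 5 mutants did not overlap with their Col-0. Lack of overlap was part of the rule by which members were named for their fold change. Here and below it is therefore no added support. In *upf3-1*, 197 of the 197 members up had no overlap.
The other mutants differed. AT4G03824 had 0 counts in all *upf3-1* libraries and 1, 0 and 0 in *rsr1-2*, while *upf1-5* had 9, 1 and 12 and *ccr4a* 5, 6 and 4, and it was not tested in these 4 because of the filter. A count of 0 allows up to 3 counts, or 0.349 to 0.392 RPM (TMM-scaled counts per 1000000 gene counts) in the *upf3-1* libraries. In the third set it had 33, 25 and 37 counts in *cstf64-2*, against 46, 9 and 44 in Col-0 (3), with a log2 fold change of -0.29 (adjusted p = 0.661). One Col-0 (3) library stood far below the others.

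AT1G42705 (chromosome 1 from 16071341 to 16073512, plus strand) rose in all 5 mutants of the second set. It had 35, 47 and 43 counts in *pab2 pab4*, against 5, 7 and 13 in Col-0 (2) (log2 fold change 1.84, SE 0.34, adjusted p = 0.00106). In *rsr1-2* it had 41, 49 and 27 counts (log2 fold change 1.81, SE 0.35, adjusted p = 0.00157) and in *ahg2-1* 32, 23 and 34 (log2 fold change 1.61, SE 0.35, adjusted p = 0.00297). Every library of the 5 mutants was above all of Col-0 (2). In *ccr4a* and *fy-2* the adjusted p was 0.046 in both and was lost when 1 library was left out. AT1G42698 (chromosome 1 from 16059193 to 16060839, plus strand), which lies close by and shares no 24-mer with it, had 58, 39 and 63 counts in *ahg2-1*, against 19, 12 and 21 in Col-0 (2) (log2 fold change 1.39, SE 0.26, adjusted p = 0.000885) and also rose in *ccr4a*, *pab2 pab4* and *fy-2*. These are the 2 members up in *ccr4a*. Neither was called in the first set. AT1G42705 was low in Col-0 (2), and set against Col-0 (1) its log2 fold change was 0.91 (adjusted p = 0.0690) in *rsr1-2*, 0.51 (adjusted p = 0.355) in *ccr4a* and 0.42 (adjusted p = 0.538) in *fy-2*, so that these 3 calls were lost. That of AT1G42698 in *ccr4a* was then 0.60 (adjusted p = 0.197). Values against Col-0 (1) are not given here for AT1G42705 in *pab2 pab4* and *ahg2-1*, or for AT1G42698 in the other mutants. Whether those calls held is therefore not shown.

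AT3G30110 (chromosome 3 from 11746725 to 11748496, minus strand) is a pseudogene that rose in both sets. It had 68, 66 and 58 counts in *pab2 pab4*, against 10, 14 and 10 in Col-0 (2) (log2 fold change 1.99, SE 0.27, adjusted p = 4.09e-05), and 54, 40 and 53 counts in *lsm1a lsm1b*, against 8, 13 and 6 in Col-0 (1) (log2 fold change 1.75, SE 0.32, adjusted p = 0.00169). In *ncb-4* the libraries were uneven, with 23, 46 and 87 counts (log2 fold change 2.02, SE 0.45, adjusted p = 0.0026), and in *fy-2* the log2 fold change was 1.20 (adjusted p = 0.036). All libraries of these 4 mutants were above their Col-0.

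AT2G12590 (chromosome 2 from 5135799 to 5138142, plus strand) rose in all 4 mutants of the first set. It had 59, 56 and 37 counts in *upf3-1*, against 6, 10 and 8 in Col-0 (1) (log2 fold change 2.07, SE 0.34, adjusted p = 3.88e-05), and 29, 41 and 19 in *upf1-5*, 23, 46 and 31 in *ncb-4* and 36, 34 and 34 in *lsm1a lsm1b*. No mutant library overlapped with Col-0 (1). The neighbouring AT2G12560 (chromosome 2 from 5122720 to 5123487, plus strand), with 93.0% of its 24-mers at a single place, had 21, 17 and 26 counts in *lsm1a lsm1b*, against 4, 0 and 1 in Col-0 (1) (log2 fold change 2.93, SE 0.63, adjusted p = 0.00463). It had 20, 15 and 23 counts in *upf3-1* (log2 fold change 2.88, SE 0.62, adjusted p = 0.00089), and it also rose in *ncb-4*.

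Other members rose with the largest fold change in 1 or 2 mutants. AT4G06646 had 28, 32 and 25 counts in *upf3-1*, against 1, 6 and 4 in Col-0 (1) (log2 fold change 2.34, SE 0.47, adjusted p = 0.000442). AT1G41810 had 17, 13 and 13 counts in *upf1-5*, against 1, 1 and 4 in Col-0 (1) (log2 fold change 2.38, SE 0.62, adjusted p = 0.0124). AT3G31314 had 24, 33 and 16 counts in *upf1-5*, against 6, 2 and 8 in Col-0 (1) (log2 fold change 1.76, SE 0.46, adjusted p = 0.0119), and it rose in *upf3-1* as well. None of these libraries overlapped with the wild type.
AT2G09830, a member with long direct repeats, had 52, 59 and 47 counts in *lsm1a lsm1b*, against 6, 8 and 15 in Col-0 (1) (log2 fold change 1.77, SE 0.34, adjusted p = 0.00233). AT4G07790 had 21, 18 and 24 counts in *pab2 pab4*, against 6, 3 and 1 in Col-0 (2) (log2 fold change 2.12, SE 0.51, adjusted p = 0.00655). AT1G42070 had 16, 19 and 24 counts in *fy-2*, against 3, 3 and 8 in Col-0 (2) (log2 fold change 1.78, SE 0.45, adjusted p = 0.024), but it was itself lower in Col-0 (2) than in Col-0 (1), which had 15, 22 and 10 counts. Set against Col-0 (1), its log2 fold change in *fy-2* was −0.043. AT4G03680 had 10, 11 and 11 counts in *ncb-4*, against 4, 0 and 0 in Col-0 (1) (log2 fold change 2.40, SE 0.76, adjusted p = 0.028) and AT1G36750 17, 19 and 22 counts in *upf3-1*, against 5, 2 and 1 in Col-0 (1) (log2 fold change 2.24, SE 0.53, adjusted p = 0.00234). In *rsr1-2*, AT1G40115 had 14, 21 and 22 counts, against 5, 2 and 6 in Col-0 (2), and AT5G31637 had 11, 24 and 19, against 4, 4 and 5. Set against Col-0 (1), the log2 fold changes in *rsr1-2* were 1.24 (adjusted p = 0.0837) for AT1G40115 and 0.21 (adjusted p = 0.799) for AT5G31637, and neither passed.
Other calls also changed with the wild type. Against the Col-0 of the other set, the log2 fold change was 1.31 (adjusted p = 0.0503) for AT4G07790 in *pab2 pab4*, 0.68 (adjusted p = 0.157) for AT2G12560 in *lsm1a lsm1b* and 0.67 (adjusted p = 0.185) in *upf3-1*. It was 0.67 (adjusted p = 0.256) for AT4G03680 in *ncb-4*, 0.74 (adjusted p = 0.149) for AT1G36750 in *upf3-1*, and in *upf1-5* 0.88 (adjusted p = 0.149) for AT1G41810 and 1.10 (adjusted p = 0.0573) for AT3G31314. None of these passed. AT4G03824 kept its call in *lsm1a lsm1b*, *ncb-4*, *ahg2-1*, *pab2 pab4* and *fy-2*, AT3G30110 in *pab2 pab4*, AT2G09830 in *lsm1a lsm1b* and AT4G06646 in *upf3-1*.

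Some members had identical counts. AT1G39510, AT1G39513 and AT1G39515 each rose in the same 5 mutants with the same counts in the first and second sets, among them 23, 21 and 35 counts in *ahg2-1*, against 7, 5 and 11 in Col-0 (2) (log2 fold change 1.55, SE 0.37, adjusted p = 0.00571). AT1G39510 and AT1G39515 have 100% of their 24-mers in common, and AT1G39513 shares 99.9% with them, so these 3 are 1 measurement. AT1G37070, which is not a copy of them, rose in *upf3-1*, *ahg2-1*, *pab2 pab4* and *fy-2*, with log2 fold changes of 1.04 to 1.06. The median level of AT1G39510 was 1.13 RPM per kb in Col-0 (1) and 0.597 in Col-0 (2). That of AT1G37070 was 1.86 and 1.22. Values against the Col-0 of the other set are not given here for these members, so whether their calls held is not shown.

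**Figure D4:**
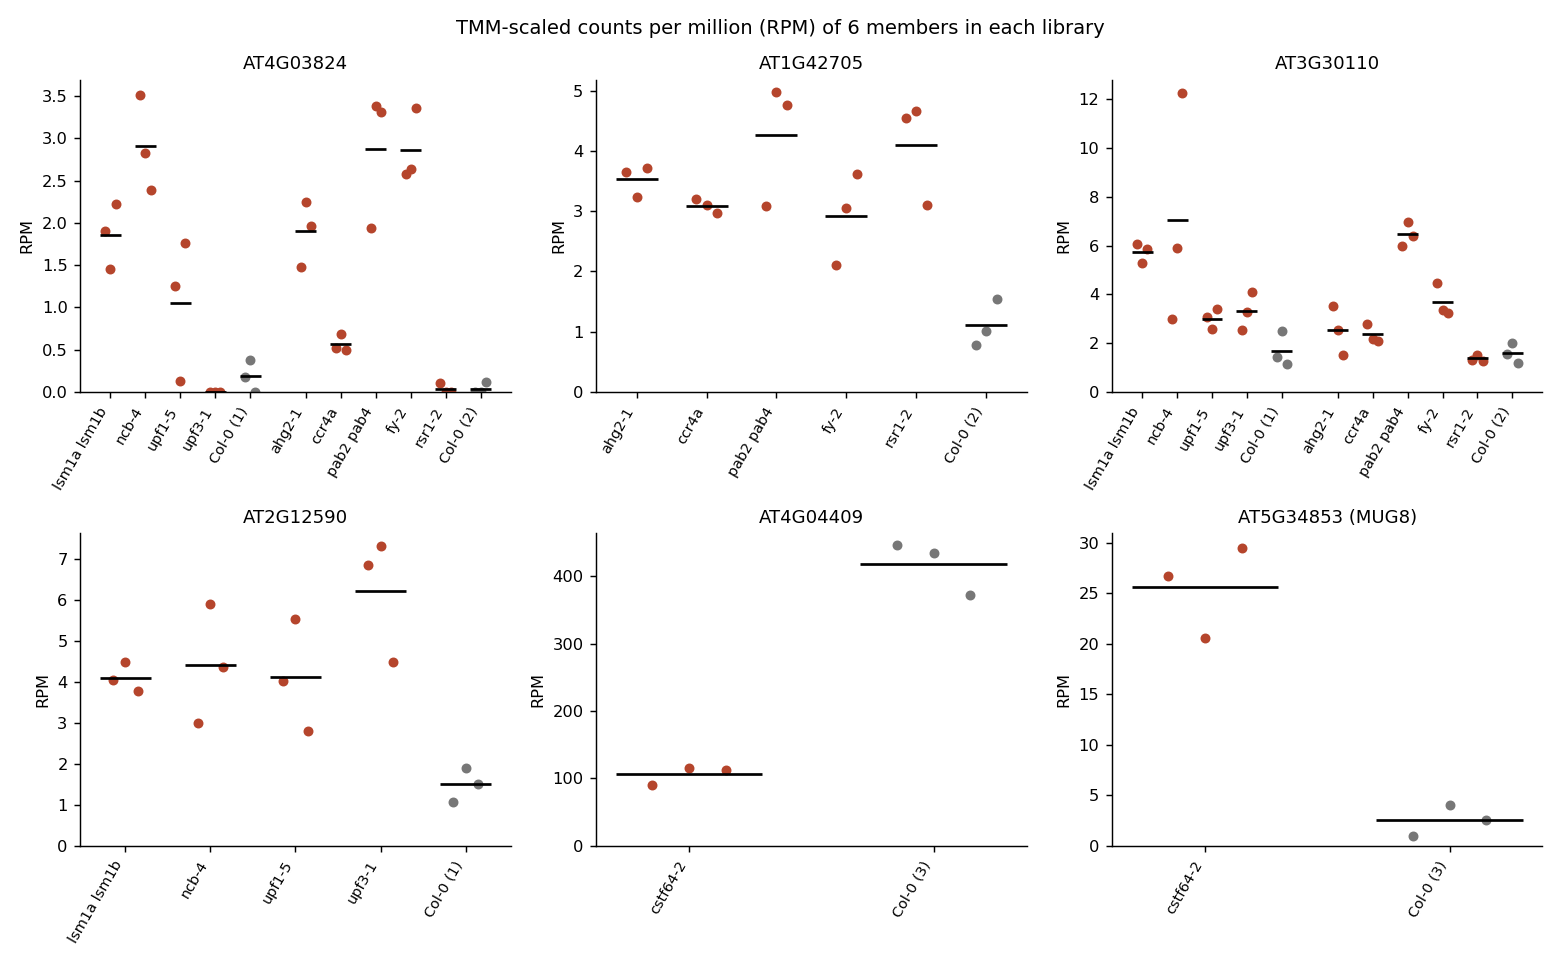
TMM-scaled counts per 1000000 gene counts (RPM, y axis) of 6 members in each library, with lines at the means of 3 libraries; panels show the sets in which the member is described. AT4G03824 is near 0 in Col-0 (1), Col-0 (2), *upf3-1* and *rsr1-2*, and AT4G04409 is lower in *cstf64-2* than in Col-0 (3).

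A stretch of chromosome 5 from 11497153 to 11552832 (55.7 kb) was noticed after the values were seen. It holds 14 members, of which 6 were up among the 13 tested in *ahg2-1*, 3 of 14 in *cstf64-2*, 2 each in *upf1-5*, *upf3-1*, *pab2 pab4* and *rsr1-2* and 1 in *ncb-4*. None was called down. AT5G32162 at its start had 16, 21 and 16 counts in *ncb-4*, against 2, 1 and 5 in Col-0 (1) (log2 fold change 2.17, SE 0.53, adjusted p = 0.00572), and 80, 64 and 61 counts in *cstf64-2*, against 29, 30 and 22 in Col-0 (3) (log2 fold change 1.10, SE 0.20, adjusted p = 0.00153). It was up in 5 mutants, without overlap in any. AT5G30400 had 42, 19 and 36 counts in *ahg2-1*, against 8, 5 and 9 in Col-0 (2) (log2 fold change 1.89, SE 0.37, adjusted p = 0.00124), and 76, 54 and 55 counts in *cstf64-2*, against 23, 14 and 20 in Col-0 (3) (log2 fold change 1.46, SE 0.25, adjusted p = 0.000937). AT5G30440 had 28, 10 and 13 counts in *ahg2-1*, against 5, 1 and 4 in Col-0 (2) and 36, 34 and 40 counts in *cstf64-2*, against 9, 13 and 7 in Col-0 (3). It shares 32.8% of its 24-mers with AT5G30400, so some reads may have counted on both, which was not tested. Against the Col-0 of the other set AT5G30400 kept its call in *ahg2-1*. The calls of AT5G30440 in *ahg2-1*, at 1.32 (adjusted p = 0.0736), and of AT5G32162, at 0.85 (adjusted p = 0.120) in *ncb-4* and 0.51 (adjusted p = 0.431) in *upf1-5*, were lost.

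The other 5 of the 8 members up in *cstf64-2* lie elsewhere. AT5G34853 (chromosome 5 from 13103678 to 13107090, plus strand) is *MUG8*, a gene of the MUSTANG family of domesticated Mutator-like transposases, and all of its 24-mers are at a single place. It had 65, 48 and 66 counts in *cstf64-2*, against 2, 8 and 5 in Col-0 (3) (log2 fold change 3.32, SE 0.37, adjusted p = 5.8e-05). AT2G05300, a pseudogene of the F-box protein family, had 15, 14 and 13 counts in *cstf64-2*, against 0, 1 and 0 in Col-0 (3), a ratio of 35.8 for the scaled sums, with a 95% counting interval of 6.08 to 1447 (adjusted p = 0.000378). AT4G08220 had 25, 39 and 28 counts in *cstf64-2*, against 6, 1 and 2 in Col-0 (3) (log2 fold change 3.08, SE 0.49, adjusted p = 0.000586). None of these libraries overlapped.
AT4G06562 had 161, 230 and 231 counts in *cstf64-2*, against 37, 25 and 38 in Col-0 (3) (log2 fold change 2.41, SE 0.21, adjusted p = 1.09e-05) and AT4G08013 66, 59 and 64 counts in *cstf64-2*, against 21, 27 and 24 in Col-0 (3) (log2 fold change 1.16, SE 0.21, adjusted p = 0.00129). Both were taken up after their values were seen. AT4G06562 has 19% of its 24-mers in common with AT5G29975, which itself did not pass in *cstf64-2* (log2 fold change −0.11, adjusted p = 0.339). In the first and second sets AT5G29975 had 2559, 2663 and 2683 counts in *ncb-4*, against 1063, 1073 and 1184 in Col-0 (1) (log2 fold change 0.74, adjusted p = 0.000327), and 1570, 1163 and 1776 counts in *ahg2-1*, against 668, 574 and 861 in Col-0 (2) (0.87, adjusted p = 0.00155), under the fold threshold.

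Among the members that fell in *cstf64-2*, the opposed pair on chromosome 4 had the highest level per kb in Col-0 (3). AT4G04408 had 294, 438 and 310 counts in *cstf64-2*, against 1133, 1354 and 1024 in Col-0 (3) (log2 fold change -1.98, SE 0.15, adjusted p = 4.31e-06). AT4G04409 had 221, 270 and 250 counts in *cstf64-2*, against 915, 865 and 719 in Col-0 (3) (log2 fold change -1.98, SE 0.11, adjusted p = 5.81e-07). Every mutant library of either gene lay below every wild-type one. Both belong to the 5 members with the highest level per kb in Col-0 (3).
In the first set the pair was called in different mutants. AT4G04408 had 83, 133 and 122 counts in *ncb-4*, against 153, 158 and 200 in Col-0 (1) (log2 fold change -1.11, SE 0.17, adjusted p = 0.000104), whereas AT4G04409 had 41, 66 and 66 against 57, 65 and 50 (−0.50, adjusted p = 0.109). Against Col-0 (2), AT4G04408 was under the fold threshold in *ncb-4*, at -0.91 (adjusted p = 0.000307). AT4G04409 rose in *upf3-1*, with 228, 185 and 223 counts in *upf3-1*, against 57, 65 and 50 in Col-0 (1) (log2 fold change 1.30, SE 0.18, adjusted p = 2.9e-06), and AT4G04408 had 438, 436 and 430 there, under the fold threshold (0.77, adjusted p = 0.000431).

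AT3G30250 also differed between mutants of different sets. It had 106, 109 and 111 counts in *cstf64-2*, against 300, 239 and 319 in Col-0 (3) (log2 fold change -1.63, SE 0.13, adjusted p = 5.81e-06), and 9, 15 and 8 counts in *fy-2*, against 17, 26 and 26 in Col-0 (2) (log2 fold change -1.39, SE 0.35, adjusted p = 0.024). It fell in *ahg2-1* as well, with 9, 10 and 13. Against Col-0 (1) neither call held, at -0.46 (adjusted p = 0.632) in *fy-2* and -0.40 (adjusted p = 0.605) in *ahg2-1*. It rose in the first set, with 57, 42 and 58 counts in *upf3-1*, against 10, 5 and 19 in Col-0 (1) (log2 fold change 1.61, SE 0.34, adjusted p = 0.000607). These comparisons have different wild types, and the difference between them was not tested. A value against Col-0 (2) is not given here for *upf3-1*, so whether the rise held is not shown. The median level of AT3G30250 was 3.09 RPM per kb in Col-0 (1) and 5.30 in Col-0 (2).
AT4G04293 (log2 fold change -1.34, SE 0.08, adjusted p = 8.77e-07) and AT4G07747 (log2 fold change -1.23, SE 0.10, adjusted p = 5.25e-06), 2 abundant members, fell in *cstf64-2*. AT4G04293 had 714, 682 and 635 counts in *cstf64-2*, against 1604, 1391 and 1398 in Col-0 (3). AT2G10405, with the largest fall of the members described, had 8, 4 and 1 counts in *cstf64-2*, against 21, 16 and 23 in Col-0 (3) (log2 fold change -2.41, SE 0.49, adjusted p = 0.00267). It overlaps on the opposite strand with *SADHU1-1* (AT2G10410), and 19.2% of its 24-mers also lie in that gene.

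Falls were rare in the 14 day-old mutants, and with TMM factors from protein-coding genes the members down were 0 in *upf3-1*, *ncb-4* and *lsm1a lsm1b*, 3 in *ahg2-1*, 1 in *pab2 pab4* and 2 in *fy-2*. AT5G28897 had 31, 24 and 49 counts in *ahg2-1*, against 89, 77 and 87 in Col-0 (2) (log2 fold change -1.52, SE 0.22, adjusted p = 7.82e-05), and it fell in *pab2 pab4* and *ncb-4* too. AT3G43832 had 7, 4 and 5 counts in *ahg2-1*, against 12, 13 and 34 in Col-0 (2) (log2 fold change -2.04, SE 0.45, adjusted p = 0.003). AT5G34851, a member with direct repeats, had 18, 25 and 14 counts in *fy-2*, against 43, 48 and 81 in Col-0 (2) (log2 fold change -1.86, SE 0.26, adjusted p = 3.82e-05). These were without overlap. AT1G35480 had 21, 18 and 28 counts in *pab2 pab4*, against 30, 34 and 45 in Col-0 (2) (log2 fold change -1.18, SE 0.27, adjusted p = 0.00521), and AT3G42750 had 15, 11 and 15 counts in *upf3-1*, against 23, 21 and 20 in Col-0 (1) (log2 fold change -1.22, SE 0.34, adjusted p = 0.00862). Against the Col-0 of the other set AT3G43832 in *ahg2-1* and AT5G34851 in *fy-2* kept their calls. Those of AT5G28897 were lost, at -0.56 (adjusted p = 0.119) in *ahg2-1* and -0.08 (adjusted p = 0.861) in *pab2 pab4*, as were AT1G35480, at -0.17 (adjusted p = 0.783), and AT3G42750, at -0.32 (adjusted p = 0.558).

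In Col-0 (1), AT2G07688, a copy of organelle sequence on chromosome 2, had the highest level, at 2115, 2206 and 1786 RPM per kb, and AT2G07731, AT5G35805, AT3G30714 and AT4G07747 followed with medians of 288, 284, 228 and 141 RPM per kb. In Col-0 (2) the first 4 were also AT2G07688, AT5G35805, AT2G07731 and AT3G30714. AT2G07688 had 3931, 2283 and 3438 counts in *lsm1a lsm1b*, against 4623, 4540 and 3727 in Col-0 (1) (log2 fold change -1.11, SE 0.17, adjusted p = 0.000407). Its raw counts overlapped, and no member was down in *lsm1a lsm1b* when counts were scaled by total counts. AT5G35805, with 0% of its 24-mers at a single place, passed the adjusted p in no comparison.
In the third set AT3G32990 had the highest level, at 3915, 4615 and 4374 RPM per kb in Col-0 (3). It had 23628, 16033 and 13982 counts in *cstf64-2*, against 20326, 23209 and 21366 in Col-0 (3) (log2 fold change -0.52, SE 0.18, adjusted p = 0.0468), with overlap. It rose in *upf3-1*, with 994, 722 and 1282 counts in *upf3-1*, against 362, 372 and 242 in Col-0 (1) (log2 fold change 1.03, SE 0.18, adjusted p = 9.35e-05). AT3G43730, the fifth in Col-0 (2) and the fourth in Col-0 (3), had 5911, 4672 and 5152 counts in *upf3-1*, against 1924, 1924 and 2114 in Col-0 (1) (log2 fold change 0.81, SE 0.15, adjusted p = 0.000149), and 6237, 5838 and 5515 counts in *cstf64-2*, against 8970, 8793 and 8957 in Col-0 (3) (log2 fold change -0.84, SE 0.11, adjusted p = 0.00013). Its libraries did not overlap in either comparison, and both changes were under the fold threshold.

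Of the 9 members with a gene symbol, 6 are Sadhu elements, non-coding retrotransposons. *SADHU1-1* (AT2G10410) had 54, 64 and 68 counts in *upf1-5*, against 18, 21 and 16 in Col-0 (1) (log2 fold change 1.35, SE 0.26, adjusted p = 0.0011), and 64, 44 and 66 in *upf3-1* (log2 fold change 1.07, SE 0.27, adjusted p = 0.00353). *SADHU3-2* (AT3G42658) and *SADHU1-3* (AT5G28626) were called in no mutant, and *SADHU2-1* and *SADHU4-1* had at most 8 and 13 counts in any library, and *SADHU7-2* had 0. *AGL88* (AT2G11990), a MADS-box pseudogene, had 22, 11 and 25 counts in *ahg2-1*, against 8, 7 and 6 in Col-0 (2) (log2 fold change 1.21, SE 0.41, adjusted p = 0.0432), and *ACS3* (AT5G28360), a pseudogene of an ethylene biosynthesis enzyme family, had 0 counts in every Col-0 library.

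The calls were also described by features that the choice of members did not use. In *cstf64-2*, 0 of 410 members with under 25% of their 24-mers at a single place were down, compared with 36 of 1302 (2.76%) at 25 to 75% and 66 of 1018 (6.48%) above 75%. At an unadjusted p under 0.05 the first count was also 0 by edgeR, and DESeq2 gave 2. The medians were −0.17, −0.27 and −0.29. In *upf3-1*, members up were 16 of 381 (4.20%), 111 of 1187 (9.35%) and 70 of 780 (8.97%) in the same order, and in *ahg2-1* 5.16%, 6.24% and 4.66%. 

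**Figure D5:**
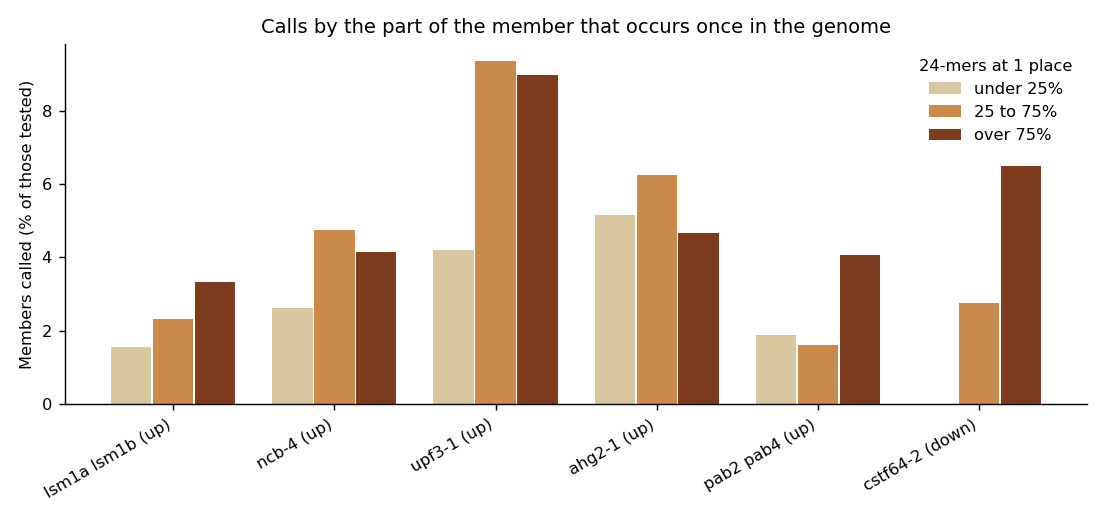
Percent of members tested that were called up in 5 mutants, and down in *cstf64-2* (y axis), by the part of the member's 24-mers that occur at a single place. In *cstf64-2* the 3 classes have 0, 2.76 and 6.48% down.

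By chromosome, the members of chromosome 4 had the highest median log2 fold change of the 5 in *upf3-1* (0.51), *ahg2-1* (0.47), *pab2 pab4* (0.46) and *lsm1a lsm1b* (0.42). In *ahg2-1*, 44 of 465 members of chromosome 4 were up (9.46%), while on the other chromosomes it was 3.45 to 6.49%. In *lsm1a lsm1b*, most calls were on chromosome 2 (23 of 477) and chromosome 4 (19 of 498). By length, members of the second quartile (813 to 1845 bases) were up most often in *upf3-1* (70 of 554, 12.6%) and *ahg2-1* (50 of 513, 9.75%), and those of the longest quartile least often (29 of 712 and 10 of 707). Fewer short members passed the filter on low counts, with 386, 554, 696 and 712 tested in *upf3-1* from the shortest quartile to the longest. By level in Col-0 (1), 43 of 200 were up in *upf3-1* in the lowest quartile (21.5%) and 53 of 718 in the highest (7.38%). Of the same members, DESeq2 called 17 up in the lowest quartile and 82 in the highest. The level quartiles come from the Col-0 (1) libraries that are also the reference of the calls. Length, level and the filter cannot be told apart in these shares.
Members within or beside long direct repeats had a median of 0.53 in *upf3-1* and 0.50 in *ahg2-1*, and the rest 0.40 and 0.33. Their up shares were 8.01% in *upf3-1* and 6.74% in *ahg2-1*, and those of the rest 8.46% and 5.33%. Between the wild types, Col-0 (2) against Col-0 (1), the medians were −0.22 with direct repeats and −0.14 for the rest. The 44 members with over 50% of their 24-mers in the organelle genomes took 2.94% of member counts in *lsm1a lsm1b* and 5.09% in Col-0 (1), and without them the share in *lsm1a lsm1b* was 2.22 times that in Col-0 (1).

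Of 17 genes of the siRNA-directed methylation pathway (such as *NRPD1*, *RDR2*, *DCL3* and *AGO4*), at most 2 had enough small RNA counts to be tested in a comparison. None was called in the 9 mutants of the first and second sets. In *cstf64-2*, *DRD1*, a chromatin remodeller of polymerase V, was called, with 27, 33 and 42 counts, against 4, 3 and 1 in Col-0 (3) (log2 fold change 3.39, SE 0.45, adjusted p = 0.000185). It was the only one of the 17 tested in that mutant, where 30.8% of protein-coding genes outside the windows were up. The counts are small RNAs on *DRD1* and no measure of its mRNA.

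The numbers of calls depended on the wild type and the libraries used. Leaving out 1 library at a time gave 145 to 266 members up in *upf3-1*, 76 to 168 in *ahg2-1* and 97 to 120 down in *cstf64-2*. The counts with single libraries left out were 12 in *upf1-5* without its replicate 2 and 30 without Col-0 (1) replicate 2, 38 in *lsm1a lsm1b* without Col-0 (1) replicate 1, and 76 in *ahg2-1* without Col-0 (2) replicate 2. In *pab2 pab4* they were 34 without its replicate 1 and 92 without Col-0 (2) replicate 3, which also gave 21 in *fy-2* and 53 in *rsr1-2*. In *fy-2*, 4, 1 and 5 were up without its replicates 1, 2 and 3, and in *rsr1-2*, 9 and 6 without its replicates 1 and 2 and 10 without Col-0 (2) replicate 2. With the wild types of the 14 day-old sets exchanged, 448 members were up in *upf3-1*, 50 in *ahg2-1* and 237 in *lsm1a lsm1b*. Of the members called up with the Col-0 of their own set, 121 of 197 were still up in *upf3-1*, 55 of 99 in *ncb-4*, 30 of 60 in *lsm1a lsm1b* and 23 of 51 in *upf1-5*. In the second set these were 22 of 125 in *ahg2-1*, 11 of 57 in *pab2 pab4*, 2 of 8 in *fy-2*, 0 of 20 in *rsr1-2* and 0 of 2 in *ccr4a*.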

How the data were processed

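The authors sequenced small RNAs of 39 libraries and deposited raw counts, the number of reads on the exons of each of 37184 Araport11 genes, without normalization. According to the methods and labels, cutadapt 1.9 and sickle cleaned the reads, Bowtie 1.0.0 placed them on TAIR10 without mismatches and at up to 10 places, and HTSeq 0.6.0 did the counting. Counting was done either with regard to strand or without, and which of these the deposited tables hold is not given in the sources used here. The lines that name no gene stayed out of all totals. Of the genes, 36899 matched TAIR10.1 by identifier; positions and sequences are from RefSeq TAIR10.1.

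For every comparison, edgeR 4.0.16 under R 4.3.3 was fitted to the libraries of the mutant and of its Col-0 alone. Weak genes were removed with filterByExpr, libraries were scaled by TMM, genes were tested by quasi-likelihood, and p-values were adjusted by Benjamini-Hochberg across the whole table. SE is the log2 fold change over the square root of F, an approximation. RPM are counts per 1000000 after TMM scaling within a set, and RPM per kb divide by exon length. Ratios against 1 to 3 summed counts have exact (Clopper-Pearson) 95% intervals, which cover counting error only. Shares were compared by exact permutation tests. Fits were checked on simulated data.

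The members and lists were chosen with earlier results of these data known. Named members were, per mutant, up to 3 up and 3 down with the largest log2 fold change and no overlap of libraries (the first identifier standing for members with identical counts), the 5 with the highest level per kb in each Col-0, the 10 called in the most mutants, and those with a symbol; others were chosen after their values were seen. Direct repeats are 100 bases or more, at least 1000 bases apart, within a member or 4000 bases beside it. Alternatives were DESeq2 1.42.0 size factors and test, TMM on protein-coding genes, total counts (added after the values were seen), no filter, the replicate number as a block, an exchange of the wild types between the 14 day-old sets, and each library left out. Other computations used Python 3.11.15 with scipy 1.17.1.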

Additional observations from a re-analysis of the deposited data

How the results depend on the processing

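The numbers of members called depended on the scaling, which shifts all genes alike. With TMM factors from protein-coding genes, members up numbered 545 in *upf3-1*, 123 in *upf1-5*, 277 in *ncb-4*, 277 in *lsm1a lsm1b*, 310 in *ahg2-1*, 245 in *pab2 pab4*, 42 in *fy-2* and 146 in *rsr1-2*, and members down 0, 0, 0, 0, 3, 1, 2 and 0 in the same order; 294 were down in *cstf64-2*, and in Col-0 (2) against Col-0 (1) 0 were up and 31 down. With total counts, added after the values were seen, members up were 1344, 636, 1041, 1529, 454, 564, 134 and 300 in that order, 6 in *ccr4a* and 14 in *cstf64-2*, and members down 0, 0, 0, 0, 2, 0, 1 and 0, with 57 in *cstf64-2*; for Col-0 (2) they were 0 and 25. This scaling put the median log2 fold change of all genes at up to 0.79 (*lsm1a lsm1b*).

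The DESeq2 test called 33 members up in *upf1-5*, 9 in *rsr1-2* and 0 in *ccr4a*, *fy-2* and Col-0 (2), and down 1 in *lsm1a lsm1b*, 1 in *ncb-4*, 1 in *upf3-1*, 2 in *ahg2-1*, 1 in *pab2 pab4* and 0 in *fy-2*. Without the filter, 34 were up in *rsr1-2*, 3 down in *upf3-1* and 0 up in Col-0 (2). With the wild types of the 14 day-old sets exchanged, members up were 448 in *upf3-1*, 256 in *upf1-5*, 308 in *ncb-4*, 237 in *lsm1a lsm1b*, 50 in *ahg2-1*, 4 in *ccr4a* and 11 in *rsr1-2*, and members down 4 in *ncb-4*, 7 in *upf1-5*, 3 in *upf3-1*, 10 in *ahg2-1*, 14 in *ccr4a*, 7 in *pab2 pab4* and 3 in *rsr1-2*. Of the original calls up, 22 of 125 were kept in *ahg2-1*, 0 of 2 in *ccr4a* and 0 of 20 in *rsr1-2*. AT1G42070 then had a log2 fold change of −0.043 in *fy-2*. The cause of these differences was not tested.

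Leaving out 1 library gave 145 to 266 members up in *upf3-1*, 12 to 69 in *upf1-5*, 69 to 131 in *ncb-4*, 38 to 79 in *lsm1a lsm1b*, 76 to 168 in *ahg2-1*, 0 to 1 in *ccr4a*, 34 to 92 in *pab2 pab4*, 1 to 21 in *fy-2*, 6 to 53 in *rsr1-2*, 8 to 12 in *cstf64-2* and 0 to 2 in Col-0 (2). Members down were 3 to 8, 0 to 1, 2 to 4, 1 to 4, 4 to 5, 0 to 1, 1 to 3, 1 to 2, 0 to 0, 97 to 120 and 4 to 18 in the same order. Of the values of named members under all alternatives, 412 kept their call, 114 lost it and 1 changed sign. The replicate numbers did not pair the samples: no comparison had a correlation over 0.1 for each number. With the replicate number as a block, 197 members were up in *upf3-1*, 38 in *upf1-5*, 97 in *ncb-4*, 53 in *lsm1a lsm1b* and 104 down in *cstf64-2*, and 0 were up in Col-0 (2).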
